A study of Drosophila melanogaster with 2 samples.

Results

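The regions described here are 300 weaker ChIP-seq candidates of the transcription factor Irbp18 whose summits lay in coding exons. They were selected on their irreproducible discovery rate (IDR), a measure of how well a candidate's rank recurs between sets of reads, which was above 0.01 and at most 0.05 in the pooled ranked list. A member also had its summit in coding sequence, in no UTR, and more than 500 bp from every annotated transcription start. The list held 128881 ranked candidates on the arms X, 2L, 2R, 3L and 3R. Of these, 2243 (1.74%) were in the weaker IDR range in any class of sequence, and of the 26090 ranked candidates in coding exons 300 (1.15%) were. Another 80 coding-exon candidates had an IDR of at most 0.01 and are called passing here. The signal and IDR values of the members are therefore given as a description, with no test.

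The study mapped Irbp18 (CG6272) by chromatin immunoprecipitation and sequencing in whole Drosophila melanogaster embryos aged 0 to 24 h. The embryos came from the transgenic strain CG6272-GFP, which expresses the factor fused to eGFP, and an anti-GFP antibody was used for the precipitation. There was 1 group with 2 biological replicates, and no control library was analysed here. The sources used here do not say whether these flies also carried an untagged copy of the gene, the labels give the sex as not collected, and whole embryos mix every tissue.

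Irbp18 is a C/EBP-type factor with a basic leucine zipper (bZIP), the domain through which it dimerises and binds DNA, and Xrp1 is its best known partner in flies. The pair is known for its roles in cell competition, in the response to ribosomal protein loss and in DNA repair. C/EBP dimers prefer palindromes such as TTGCGCAA, and C/EBP with ATF4 partners prefer the composite site known as the CARE. Coding exons are richer in G and C than the introns and intergenic DNA around them, and many developmental regulators of the fly carry runs of CAG in their coding sequence, known as opa repeats.

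The sequences under the strongest members are shown for their base composition, which is set against other coding sequence further on. All sequences are 30 bases from the RefSeq release 6 genome, read on the coding strand of the gene, with coordinates on dm6. The next sequences are centred on the summit of 17 of the 20 strongest members, in order of signal, and capitals mark the longest run of G and C.
Ptx1, chr3R:30916412-30916441, plus strand: gcaggatCGGCagagagtgccaccaccacc
Serinc, chr3L:16413493-16413522, plus strand: ctGCGagtatgcacttggttacatggcagt
Nlg4, chr3R:20238025-20238054, plus strand: agcagcagcaataactcggcaatGGGCGtg
InR, chr3R:21580247-21580276, minus strand: CGtatagcagtagcaacagcagcagctgtc
CG34384, chr3R:7815218-7815247, plus strand: aatGGCacacttaaaactggacaccctcca
scrib, chr3R:26567056-26567085, plus strand: actccaactacgacgacagtCGCCCCaacc
CG6163, chr3L:11362770-11362799, minus strand: gagcaCGCCCaggacatgccaatcggattg
alphaTub85E, chr3R:9731390-9731419, minus strand: ggctCGCGaggatctcgctgccctcgagaa
Zdhhc8, chrX:9332524-9332553, minus strand: atcaacgcaGCGCGacgaccacggccacgc
toc, chr2L:3124725-3124754, minus strand: acgacgaCGGCGGCagcagcagcagcggcg
rho, chr3L:1466559-1466588, plus strand: tcggattcggtgctggtctatCGGCCGGac
CG17672, chr3L:13035197-13035226, plus strand: cccaataatGCGCCatatccgaggtgagtc
ftz, chr3R:6865568-6865597, plus strand: caccatcggtgccagtGCCCatgtaccacc
LUBEL, chr2L:6769635-6769664, minus strand: gccaCGCCCCCagtgccaccaattgccacc
CG6664, chr3L:17013605-17013634, minus strand: GCGCttcgtcgtcgtcgtccaatttgatga
Ten-a, chrX:12274029-12274058, plus strand: ccaatgggcgctggcacgatGCCCGGCGGt
Taf4, chr3L:16118842-16118871, plus strand: CCacaacagcaatcacttcgatgcaaaact
The GC content of these 30 bases ran from 43.3% at Taf4, which encodes a TFIID subunit, to 76.7% at toc. It was at least 60% in 10 of the 17, among them Ptx1 with 66.7%, Zdhhc8 with 70% and Ten-a with 73.3%, and below 60% in 7, among them Serinc with 50%, InR with 53.3% and CG34384 with 46.7%. Over the 30 bases at all 300 summits the median was 60%, with quartiles of 53.3% and 66.7%.

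A run of 3 CAG copies in any frame was found within 50 bp of the summit in 25 of 300 members. In the next 6 sequences capitals mark that run, which overlaps the summit or lies beside it.
toc, chr2L:3124723-3124752, minus strand: gacgacggcgGCAGCAGCAGCAGCggcggc
Nlg4, chr3R:20238015-20238044, plus strand: gacaacgaaCAGCAGCAGCAataactcggc
InR, chr3R:21580241-21580270, minus strand: gcagtagcaaCAGCAGCAGCtgtcaagcaa
mtgo, chr2L:16657683-16657712, plus strand: aacaacaaCAGCAGCAGCAGgtggcaccac
IRSp53, chr3L:11162543-11162572, plus strand: gcgccatcacCAGCAGCAGCAtcagcaaat
CG7656, chr3L:15586286-15586315, minus strand: aataatggagGCAGCAGCAagtgcaagaac
These genes encode, among others, a microtubule-associated protein (toc), a postsynaptic adhesion protein of the neuroligin family (Nlg4), the insulin receptor (InR) and an adaptor that bends membranes (IRSp53).

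Of 5 bZIP words searched, at least 1 stood within 50 bp of the summit in 6 of 300 members. Taken singly, the words stood in 0.0272% to 0.473% of windows of the same size in coding sequence, by word. How many of those windows hold any of the 5 was not counted, so the 6 members are not shown to exceed coding sequence. The next 5 sequences show the words at members, with the word in capitals. The CARE is at slp2, read there as the reverse complement of TGATGCAA, the C/EBP palindrome at Vha100-1, the CRE palindrome at bark, and the AP-1 site at CG17672 and prc. The remaining AP-1 site was at CG5756.
slp2, chr2L:3838333-3838362, plus strand: accaacagctgTTGCATCAacatgcggcag
Vha100-1, chr3R:29132464-29132493, plus strand: tgaagcatattTTGCGCAAaacccaagtgt
bark, chr2L:3790935-3790964, plus strand: caccccatcgaTGACGTCAtcttcgtcata
CG17672, chr3L:13035209-13035238, plus strand: ccatatccgaggTGAGTCAgtcatctggca
prc, chr3L:11960751-11960780, minus strand: tgatggagccgTGAGTCAgtctcagggatc
The gene slp2 encodes a forkhead factor of segmentation, Vha100-1 a subunit of the vacuolar proton pump, bark a transmembrane protein of cell junctions and prc the heart matrix protein Pericardin.

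Coding exons took a larger share of the candidates in the weaker range than of those with an IDR of at most 0.01. In the weaker range they held 300 of 2243 candidates, 13.4% (exact Clopper-Pearson 95% interval 12 to 14.9), against 2.33% (1.86 to 2.90) of the 3427 passing candidates. From an IDR of 0.05 to 0.1 the share was 20.5%, and in the 3 bands above 0.1 it was 21.4%, 21.8% and 20.4%. Promoters, defined as within 500 bp of a start, took 30.4% in the weaker range, against 55.4% among passing candidates, and 12.8% at an IDR above 0.63. Among candidates more than 500 bp from every start, coding exons made up 19.2% (17.3 to 21.3) of 1561 in the weaker range, against 5.24% (4.18 to 6.48) of 1527 passing ones. In the 4 bands above 0.05 that share was 26.6%, 26.0%, 25.3% and 23.3%. The weaker range thus lay between passing and lower ranked candidates on both counts. Here and below, intervals cover counting error over sites only, and sites close together share reads and sequence.

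**Figure D1:**
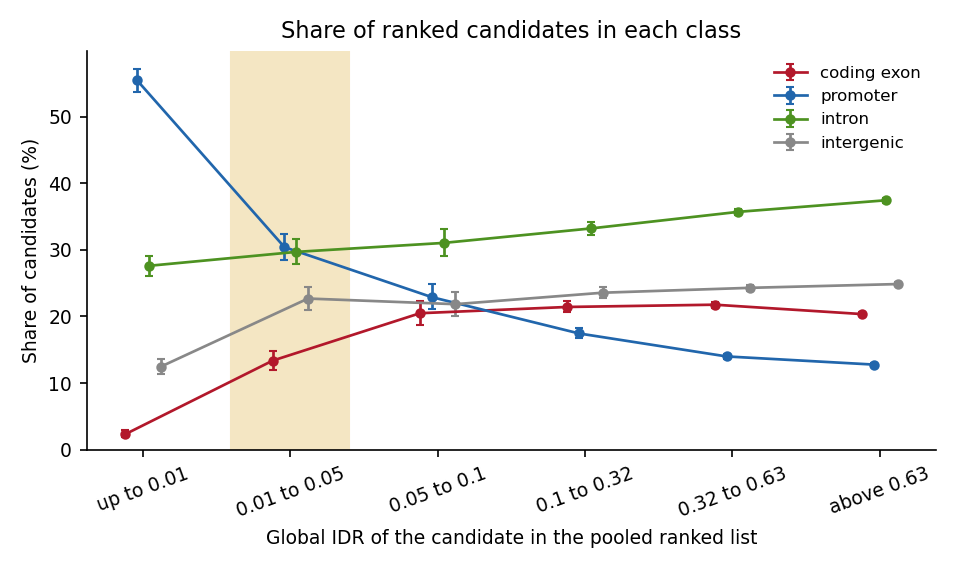
Share of ranked candidates in each class (percent, vertical axis) in 6 bands of global IDR (horizontal axis, lowest IDR at the left), with exact 95% intervals; the shaded band holds the 300 members. Coding exons hold 13.4% there, against 2.33% at an IDR up to 0.01 and 20.5% at 0.05 to 0.1.

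The members had lower signal values than passing coding-exon sites and values much like the other weaker candidates. These sets were divided by IDR in the same list, so this order is not independent of the rule and is a description. The signal value, the authors' own measure of peak height with no unit given, had a median of 62.3 in the 300 members, with quartiles of 56.5 and 68.9 and a range of 4.76 to 87.0. In the 80 passing coding-exon candidates the median was 76.9 and the highest value 301. Over all 2243 weaker candidates the median was 63.3 and the highest 191. The members ranked from 2793 to 125789 in the list, with a median of 5682.5. All 300 members were 356 bp wide, as were all other weaker candidates, in every class. Among passing candidates 98.8% of those in coding exons and 72.4% of those at promoters had that width.

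The highest pooled signal values among the members were 87.0 at Ptx1, a homeodomain factor, 82.4 at Serinc, a multi-pass membrane protein, and 80.8 at Nlg4. CG10384 followed with 80.2, InR with 78.8, CG34384 with 78.6, the polarity scaffold scrib with 78.5 and CG6163 with 78.5. The other 12 of the strongest 20 ran from 77.9 to 75.1. They were alphaTub85E, the palmitoyltransferase Zdhhc8, toc, CG6362, the EGF-ligand protease rho, CG17672, the pair-rule homeodomain factor ftz, mtt (a relative of metabotropic glutamate receptors), the ubiquitin ligase LUBEL, CG6664, the teneurin Ten-a and Taf4. The differences between neighbours in this order were small, and no spread over samples exists for a pooled value.

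The members at the limits differed little from the candidates just beyond them. Just inside the limit of 0.01 were Ddr, a receptor tyrosine kinase, with signal 65.8, the ligand Wnt2 with 71.6, mtt with 76.0, alphaTub85E with 77.9 and Zdhhc8 with 77.6. Just outside were CG2017 with signal 74.2, CG2310 with 77.0, Cdep with 75.9, Lip3 with 66.8 and osa, a subunit of the Brahma remodelling complex, with 65.0. At the limit of 0.05, Cyp6a21 (signal 51.7), slp2 (72.4), osp (65.7), fru (48.8) and ect (58.2) were just inside. Or43b (56.0), CG8306 (65.1), CG42674 (60.5), Bx42 (65.2) and fl(2)d (47.9) were just outside.

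Few members reached the thresholded list of a single replicate, and none reached both. Summits within 100 bp were taken as the same site. In replicate 1, 4 of 300 members (1.33%, 0.364 to 3.38) lay at a thresholded peak, against 4.55% of all weaker candidates. In replicate 2 it was 2 of 300 (0.667%, 0.0808 to 2.39), against 1.2% of all weaker candidates. For both replicates at once the count was 0 of 300, which allows a share of up to 1%. Among the 80 passing coding-exon candidates, 11 were in the replicate 1 list, 6 in the replicate 2 list and 3 in both. The pooled list was made from the same libraries, so these counts are not independent of how the members were chosen.

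The 6 members found at a replicate peak had passed in 1 replicate's list and not in the other's, so a higher value in that replicate comes with how they were picked. Their values are given as a description. Ptx1 had a signal of 57.4 in replicate 1 and 27.9 in replicate 2. The gene ftz had 52.6 in replicate 1 and 27.9 in replicate 2. The high side was replicate 1 for both. UQCR-C1, a subunit of respiratory complex III, had 49.3 in replicate 1 and 24.1 in replicate 2, and rho had 44.9 in replicate 1 and 24.9 in replicate 2. The opposite held for CG6664, with 30.9 in replicate 1 and 52.1 in replicate 2, and for InR, with 29.1 in replicate 1 and 42.2 in replicate 2. The distance from the pooled summit to the replicate's thresholded summit was 8 bp at Ptx1, 5 bp at ftz, 1 bp at UQCR-C1, 39 bp at rho, 8 bp at CG6664 and 4 bp at InR.

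Most members were ranked candidates in the single replicates, as were most weaker candidates of all classes. The ranked lists are long, with 117490 candidates on the 5 arms in replicate 1 and 113421 in replicate 2. They come from the libraries that were pooled, so a match within 100 bp is no independent support. In replicate 1, 265 of 300 (88.3%) had a ranked candidate within 100 bp, with signal values from 29.0 to 57.4 and a median of 34.6. In replicate 2, 268 of 300 (89.3%) did, with values from 24.1 to 52.1 and a median of 28.8. Over all 2243 weaker candidates the shares were similar, with 88.1% in replicate 1 and 84.8% in replicate 2. Both replicates ranked 242 of the 300 members and neither ranked 9, against 1759 and 122 of all weaker candidates. In 193 of the 242 the replicate 1 value was the higher and in 49 the replicate 2 value was, with a median ratio of 1.18. The 59 passing coding-exon candidates ranked in both gave 47 and 12, with a median ratio of 1.19. The sources used here give no scaling between the replicate lists, so the ratio is a description. An IDR of at most 0.05 was reached in 1 replicate by 24 of 300 members and in both by 1. Of all 2243 weaker candidates, 395 reached that IDR in 1 replicate and 4 in both. Among the 80 passing coding-exon candidates the counts were 27 and 12. The member that reached it in both was colt, the mitochondrial carnitine carrier, with signal 42.8 in replicate 1 and 27.6 in replicate 2.

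**Figure D2:**
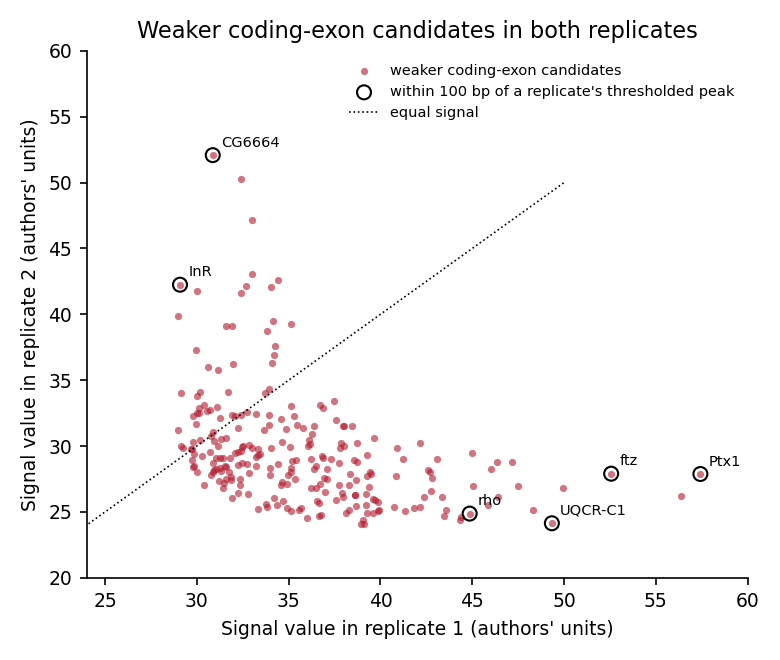
Signal value in replicate 2 (vertical axis) against replicate 1 (horizontal axis), in the authors' units, for the 242 members ranked in both replicates; circles mark the 6 members within 100 bp of a replicate's thresholded peak, and the dotted line marks equal values. Of the 242 points, 193 lie on the replicate 1 side and 49 on the replicate 2 side; the circled members passed in 1 replicate and so lie at its high end by that choice.

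The second pooled ranked list gave the members a wide spread of IDR. It held 298 of the 300, of which 17 had an IDR of at most 0.01 there, 135 were again in the weaker range and 146 ranked lower. The 17 were also in its thresholded list, 5.67% of the members (3.34 to 8.92), against 13.7% of all weaker candidates and 21.3% of weaker promoter candidates. Among passing coding-exon candidates 45 of 80 were in it. The 17 included 9 of the strongest 20 members, among them Ptx1, Serinc, toc, rho, ftz, Ten-a and Taf4. Both pooled lists share the same libraries.

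Some members overlapped one another. In 15 cases 2 members had overlapping peaks in the same gene, with summits 199 to 253 bp apart, so the 300 members make up 285 separate loci. The fainter of each pair had a signal of 4.76 to 24.5, and the brighter 46.2 to 66.6. The IDR values of a pair were nearly equal. At CG15865 the fainter had −log10 IDR 1.6156 at a signal of 4.76, and the brighter 1.6153 at a signal of 61.6. In all, 33 members had a signal below 50, and 20 of these were overlapped by a brighter ranked candidate. Of the 267 members with a signal of 50 or more, 0 were, which allows a share of up to 1.12%.

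Members were scarce on the X chromosome and spread more evenly over the autosome arms. The X held 15 of 300 members, 5% (2.83 to 8.11), while it held 18.0% of eligible coding sequence, meaning coding bases outside UTRs and more than 500 bp from a start. Per Mb of eligible coding sequence that was 4.81 members on X, against 20.7 on 2L, 18.3 on 2R, 22.4 on 3L and 19.2 on 3R, and 17.3 over all 5 arms. The 15 on X lay in 13 genes, among them Zdhhc8 with signals 77.6 and 65.2, Ten-a with 75.4, br with 66.7, Septin4 with 66.0, btd with 64.0 and vnd with 55.3. Their median signal was 65.2, against 61.3 on 2L, 62.7 on 2R, 62.6 on 3L and 61.5 on 3R. Signals ran from 4.76 to 77.6 on X, and from 5.47 on 2L up to 87.0 on 3R over the autosome arms. The members were chosen on their IDR in the same pooled list, so these medians are not compared.

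A low X share was also seen in passing coding-exon and weaker intergenic candidates, and less so in weaker promoter and weaker intron candidates. Passing coding-exon candidates had 4 of 80 on X (5%, 1.38 to 12.3), and weaker intergenic candidates 5.89% (4.01 to 8.31). Weaker intron candidates had 13.1% and weaker promoter candidates 14.4%. Passing intron candidates had 26.1% on X (23.3 to 29.0) and passing promoter candidates 16.9%, against 18.4% of all ranked candidates. Within coding exons the X share was higher in each later IDR band from 0.05 on. It was 6.37% at 0.05 to 0.1, 10.6% and 17.8% in the next bands and 20.5% above 0.63. In single replicates, the weaker coding-exon candidates on X numbered 5 of 100 in replicate 1 (5%) and 2 of 92 in replicate 2 (2.17%). In the other pooled ranked list the X share of weaker coding-exon candidates was 7.76%. The GC content of the sequence differed too. The X held 26.6% of the windows of eligible coding sequence with at least 60% GC, more than its share of the sequence, and its 15 members had a median GC of 65.3%. The part of GC content in the low X share was not tested.

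**Figure D3:**
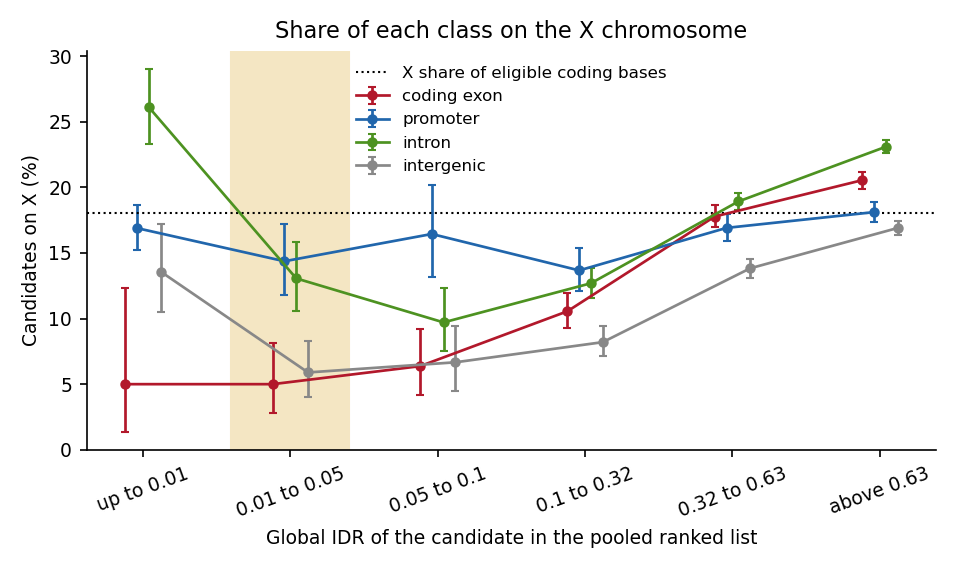
Share of candidates on the X chromosome (percent, vertical axis) for 4 classes in 6 bands of global IDR (horizontal axis, lowest IDR at the left), with exact 95% intervals; the dotted line is the X share of eligible coding bases (18.0%) and the shaded band holds the members. Coding-exon candidates sit at 5% in the first 2 bands and at 20.5% in the last.

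Members sat on short islands of high GC. Within 50 bp of the summit the median GC content was 60.4% (59.4 to 61.4, exact order-statistic 95% interval), with quartiles of 55.4% and 65.3% and a range of 37.6% to 76.2%. The 150701 windows of the same size that tile eligible coding sequence had a median of 54.5%, with quartiles of 49.5% and 58.4%. The whole window was eligible coding sequence in 254 of the 300 members. At least 60% GC was found in 160 of 300 members, 53.3% (47.5 to 59.1), against 18.6% of eligible coding windows. By their medians, members were above the windows of their own arm on each arm. The medians were 65.3% in members and 56.4% in windows on X, 60.4% and 53.5% on 2L, 58.4% and 53.5% on 2R, 61.4% and 53.5% on 3L, and 58.9% and 54.5% on 3R. Passing coding-exon candidates had a median of 61.9%.

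Outside coding exons the weaker candidates were less GC-rich, and passing candidates less still. The medians were 49.0% at weaker promoters, 46.5% in weaker introns and 49.5% between genes. They were 36.6% at passing promoters and 33.7% in passing introns. In the same weaker range, the 39 candidates in 3' UTRs had a median of 60.4%, the same as the members, and 1 of the 39 was on X. In coding exons the median was lower in each later IDR band, with 59.4% at 0.05 to 0.1, 57.4% and 56.4% in the next bands and 55.4% above 0.63.

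The GC content of the members fell steeply within 350 bp of the summit. In steps of 50 bp, in genome orientation, the mean was 60.2% at the summit, 51.7% at 200 bp before and 51.9% at 200 bp after it, and 41.8% at 350 bp after it. It stayed between 42% and 44.3% from 450 to 1000 bp before the summit. Eligible coding windows had 53.9% at their centre, 48.8% at 350 bp after and 45.6% at 1000 bp after. Passing coding-exon candidates had 61.4% at the summit and 39.2% at 350 bp after it. Members thus had a higher mean than coding windows at the centre and a lower one at 350 bp. The exon around a member was also shorter, with a median coding length of 568.5 bases against 831 for eligible coding bases. The sets were not matched for exon length, and its part in this contrast, here and member by member, was not tested.

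The same contrast was measured member by member, on the same sequence. The window at the summit had more GC than its own flanks, taken from 300 to 500 bp on both sides, in 289 of 300 members (96.3%, 93.5 to 98.2). These flanks were chosen after the profile had been seen and lie where the members' mean was low, so the count is no separate support. In 1 of every 10 eligible coding windows, 15071 in all, it was measured in the same way, and the window had more GC than its flanks in 73.4%. The median difference was 16.2 percentage points in members, with quartiles of 8.95 and 24.8, against 4.65 points in those coding windows. Passing coding-exon candidates had 78 of 80 and a median difference of 21.6 points. Among weaker candidates the summit was the higher in 74.3% between genes, 67.9% in introns and 66.0% at promoters. Among passing candidates it was the higher in 25.7% in introns and 32.9% at promoters. How many reads input chromatin gives at such islands was not measured in the files used here, and its part in these counts was not tested.

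**Figure D4:**
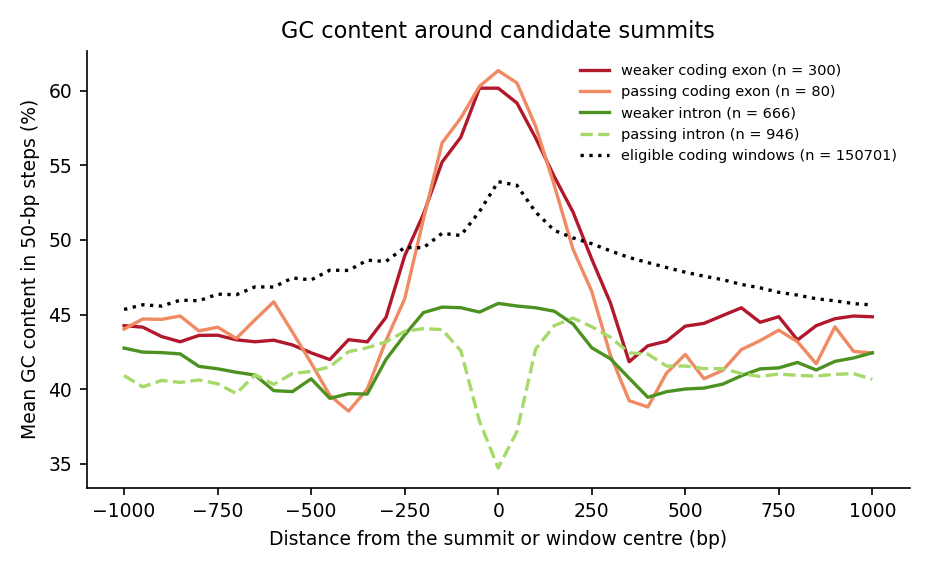
Mean GC content in 50-bp steps (percent, vertical axis) by distance from the summit or window centre (bp, horizontal axis, genome orientation) for members, passing coding-exon, weaker intron and passing intron candidates and eligible coding windows. Members peak at 60.2% and fall to 41.8% at 350 bp after the summit, while passing introns have their minimum at the summit.

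The median member lay nearer the start codon and in a shorter exon than the median eligible coding base. Along the coding sequence, with 0% at the start codon, their median position was 47.2%, with quartiles of 23.1% and 77.0%, against 55.3% for eligible coding bases. With the coding sequence cut into 5 equal parts, the first part held 68 members, 22.7% (18.1 to 27.8), against 13.0% of eligible bases. The other parts, in order, held 20.7%, 17.7%, 17.0% and 22.0% of members, against 19.9%, 22.4%, 22.9% and 21.7% of eligible bases. The first coding exon held 81 members, 27.0% (22.1 to 32.4), against 18.1% of eligible bases, and the last coding exon 114, 38% (32.5 to 43.8), against 33.2%. Genes with 1 coding exon held 33 members, 11.0% (7.69 to 15.1), against 8.39% of eligible bases.

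The exon around a member had a median coding length of 568.5 bases, against 831 for eligible coding bases and 445 for passing coding-exon candidates. The nearest start lay a median of 1714.5 bp away, against 1852 bp for eligible bases, and 28246 bp at most. In 246 members (82.0%) the summit was coding in every coding transcript of its gene. Genes of the plus strand held 142 members and genes of the minus strand 158. Among the named members, Ptx1 lay at 13.0% of its coding sequence, scrib at 21.2%, rho at 39.5%, ftz at 84.8% and alphaTub85E at 94.5%, so the strongest members were not kept to 1 end of the gene.

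**Figure D5:**
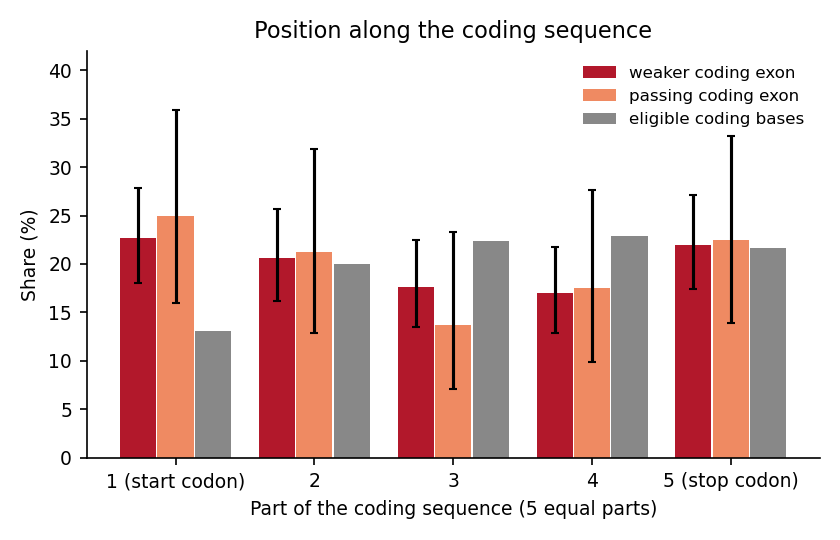
Share (percent, vertical axis) of members, passing coding-exon candidates and eligible coding bases in each of 5 equal parts of the coding sequence from start to stop codon (horizontal axis); bars start at 0 and error bars are exact 95% intervals. The first part holds 22.7% of members, against 13.0% of eligible coding bases.

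Binding words of C/EBP and related factors were rare at members, as they are in other coding sequence. Both strands were searched within 50 bp of the summit for 12 motifs. The CARE, TGATGCAA or TGATGTAA, was found at 1 member, slp2 (0.333%, 0.00844 to 1.84), against 0.421% of eligible coding windows. Vha100-1 was the 1 member with the C/EBP palindrome TTGCGCAA, against 0.196% of windows. The CRE palindrome TGACGTCA was found at 1, bark, against 0.0478%, and the PAR site TTACGTAA at 0, which allows a share of up to 1%. The AP-1 site, TGACTCA or TGAGTCA, stood at 3 members, CG17672, prc and CG5756 (1.00%, 0.207 to 2.89), against 0.473% of windows. A relaxed C/EBP site, TTACNNAA or TTGCNNAA, which includes the C/EBP palindrome and the PAR site, was found at 12 members, 4% (2.08 to 6.88). It was in 6.80% of eligible coding windows, and in 11.4% of weaker introns and 11.6% of weaker intergenic candidates. A match is a run of letters, not a shown site.

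The words of other embryonic factors were near their share in coding sequence, with CAG runs above it. The GAGA motif GAGAG, the word of the GAGA factor, was at 38 members, 12.7% (9.12 to 17.0), against 12.6% of eligible coding windows. The E-box CACCTG of the Snail and Twist type was at 27, 9% (6.01 to 12.8), against 8.01%. The Zelda word CAGGTAG was at 2, against 0.948%. The DRE, TATCGATA, was at 0 members, which allows a share of up to 1%, against 0.0856% of windows and 4.84% of weaker promoter candidates. A run of 7 A was likewise at 0 members, against 0.632% of windows and 9.46% of weaker introns. The CAG run, CAGCAGCAG in any of its 3 frames, was at 25 members, 8.33% (5.47 to 12.1), against 3.95% of windows and 6.25% of passing coding-exon candidates. In 201 members none of the 12 motifs was found. At least 2 motifs were found in 11, among them toc (GAGA motif and CAG run), slp2 (CARE and GAGA motif) and bon (GAGA motif and E-box). Vha100-1 was also among the 11, because its C/EBP palindrome counts as a relaxed C/EBP site too. Neither count was taken over eligible coding windows, so neither is set against other coding sequence.

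The 300 members lay in 278 genes, 22 of which held 2 members and none of which held 3. Of 11329 protein-coding genes with enough eligible coding sequence for a window, 278 (2.45%) held a member. The share was higher in genes with more eligible sequence. With the genes cut into 4 classes by that length, it was 27 of 2833 genes (0.953%) in the shortest class, with at most 525 bases, 50 (1.76%) and 63 (2.23%) in the middle classes and 138 of 2832 genes (4.87%) in the longest. Per Mb the order was the reverse, with 31.2, 25.1, 17.1 and 14.7 members from the shortest to the longest class. Genes with a member had a median of 1786.5 eligible bases, against 1042 over all eligible genes.

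Read against 22 gene lists, the members touched 16 of 383 listed eligible genes (4.18%), beside 2.45% of all eligible genes. The share was higher in genes with more eligible sequence. Listed genes were not matched to the others in length, so the 2 shares are not compared. Regulators of early development were among the 16. Of 26 Hox and segmentation genes 3 held a member, ftz with signal 76.3, slp2 with 72.4 and the Hox gene pb with 70.5. Of 19 early embryo regulators 3 did, rho with 76.7, the BMP ligand dpp with 60.4 and the neuroblast homeodomain factor vnd with 55.3. In replicate 1 and replicate 2, dpp had signals of 37.1 and 28.2, and pb had 44.3 and 24.4. Of 16 actin and tubulin genes 2 did, alphaTub85E with 77.9 and the muscle actin Act79B with 72.6.

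Other lists held 1 or 2 genes with a member. Of 33 chromatin regulators these were Chro, a chromodomain protein, with 63.5 and the remodeller kis with 59.1. The small heat shock gene Hsp26 (57.7) was 1 of 20 chaperone genes, the cadherin ds (72.1) 1 of 20 matrix and adhesion genes, and the myosin light chain gene Mlc2 (52.9) 1 of 18 muscle genes. The TATA-binding protein gene Tbp (59.5) was 1 of 17 transcription genes, loco (62.7), a regulator of G protein signalling, 1 of 10 glial genes, and the tracheal factor trh (59.9) 1 of 14 epidermal and tracheal genes. GC content within 50 bp of the summit was 68.3% at ftz, 62.4% at slp2, 69.3% at pb, 70.3% at dpp, 68.3% at vnd and 57.4% at Hsp26.

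In 12 of the 22 lists no gene held a member, beside 2.45% of all eligible genes, and a 0 in lists of this size is near that share. The count was 0 of 38 eligible ribosomal protein genes, which allows a share of up to 7.89%. Many ribosomal protein genes are short, and 38 of 73 found had enough coding sequence beyond 500 bp of a start. It was also 0 of 17 genes of bZIP factors and 0 of 18 genes of the integrated stress response and amino acid stress. The other lists with a count of 0 were elongation factors and tRNA synthetases (24 eligible genes), the Notch, Hippo and JNK pathways (19), neurons (18), hemocytes and fat body (13), gut (12), germline (11), histones (6) and the cell cycle (20). The zeros hold for the genes on these lists, not for each pathway as a whole. The mitochondrial methionyl-tRNA synthetase gene MetRS-m held a member with signal 66.1 and is on none of the lists, and ds, which also acts in the Hippo pathway, was counted under adhesion. No list of DNA repair or cell competition genes was counted. The repair genes mus201 (signal 59.9) and RecQ4 (56.7) and the cell death regulators hid (56.4) and Diap1 (60) held members. They were picked after the members were seen. Genes of these kinds without a member were not counted, so no share can be given for them. A count of 0 in the lists allows a share of 12.5% in the list of 24 and of 50% in the list of 6.

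By their medians, members lay closer to a peak of the conservative pooled list than weaker candidates in introns or between genes. The nearest conservative peak lay at least 578 bp from a member and a median of 10693 bp away, against a median of 13681.5 bp for weaker introns and 22118 bp for weaker intergenic candidates. Within 1 kb there was one for 24 members, 8% (5.19 to 11.7), against 4.80% (3.31 to 6.72) of weaker intron candidates and 4.13% (2.57 to 6.24) of weaker intergenic candidates. The distance is not given here for eligible coding sequence or for passing coding-exon candidates. Closeness to these peaks is therefore not shown to be particular to the members.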

How the data were processed

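Both biological replicates of the 1 group were used. Per the labels, chromatin was sonicated to a size range of 200 to 800, and the peaks are on dm6. The labels' description names an anti-GFP antibody, which is followed here, while their antibody tag names CG6272. The lists deposited by the authors give a signal value per peak, with no stated scaling, and the global IDR as −log10. The sources used here name no aligner or peak caller. The lists hold no read counts, so depth is unknown. Values for single sets in 8 further columns of the pooled lists could not be tied to a replicate and were not used.

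Members were taken from the pooled ranked list that matches the conservative peaks, by the summit and the Ensembl annotation BDGP6.54. Windows reach 50 bp to each side of the summit, and eligible coding sequence was tiled with windows of equal size. Flanks of 300 to 500 bp were chosen after the GC profile had been seen. Shares have exact Clopper-Pearson 95% intervals, which cover counting error over sites only, and 0 counts a limit of 3 counts. No hypothesis test was run, because there is 1 group without a control. The scripts (Python 3.11.15, numpy 2.4.6, pandas 2.3.3, scipy 1.17.1) were checked on made-up genes with known answers.

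Genes were named for the 20 highest signals, for 3 or more members, for recurrence in both replicates, as the 2 strongest of a list, beside an IDR limit (5 on each side), or for a CARE, a C/EBP palindrome or at least 2 motifs. UQCR-C1, colt, bark, prc, CG5756, CG15865, pb, vnd, MetRS-m, mus201, RecQ4, hid and Diap1, the X-linked genes br, Septin4 and btd, and the examples among the 17 members of the second thresholded list were named after their values were seen. Of the list symbols, 435 were found and 14 were not. The members, lists and motifs were chosen with earlier results of these data known.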

Additional observations from a re-analysis of the deposited data

How the results depend on the processing

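Of 78 recalculations over 18 results, 55 stayed within their limit and 23 moved beyond it. The limit was a factor of 1.5 for the number of members, and otherwise the value's own 95% interval. The median GC content, the share in the last coding exon, the position along the coding sequence and the shares in thresholded replicate lists were among the 55. The number of members was 158 with IDR up to 0.03 and 708 up to 0.1, and 92 to 100 in a single replicate. The coding-exon share of weaker candidates was 16.7% up to IDR 0.1, 17.2% and 9.45% with starts kept 200 and 1000 bp away, 15.2% in the other pooled list and 8.56% to 11.3% in single replicates. With windows of 25 bp and 100 bp to each side, the relaxed C/EBP site was at 2.00% and 9% of members and the GAGA motif at 6.67% and 21.0%. The CAG run was at 16.0% with 100 bp and the Zelda word at 0% with 25 bp, and shares of motifs follow window length. Eligible genes with a member were 1.32% up to IDR 0.03, 5.46% up to 0.1 and 2.82% in the other pooled list. The share of members near a conservative site was 0% within 500 bp, 16.3% within 2 kb, and 13.0% within 1 kb of the other thresholded list, which holds 17 members itself. On X the share was 2.17% to 5% in single replicates, 7.76% in the other pooled list, 6.33% up to IDR 0.03, 5.79% up to 0.1 and 4.91% with 1 member a locus. These were chosen after seeing the data. No paired analysis was possible because there is 1 group and no comparison between groups. Depth is unknown, so how far it limits the lists cannot be given.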
